A study of Homo sapiens with 24 samples.

Results

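The PIM kinase genes PIM1, PIM2 and PIM3 were examined for regions whose chromatin accessibility was called changed after inhibition of CDK9. A region was taken when any base of it lay within 50 kb of the annotated transcription start site (TSS) of 1 of the 3 genes, and it was placed at the promoter when it lay within 1 kb of that TSS. By this rule 14 regions were found among 26369 distinct regions in 8 lists. PIM1 had 4 of them, PIM2 had 2 and PIM3 had 8. A region was at the promoter of each gene (3 in all), 4 regions were at the promoter of a neighbouring gene, and 7 were flanking regions at no annotated promoter. Of the 14 regions, 13 were called increased in at least 1 comparison, 1 was called decreased, and 0 were called in opposite directions in different comparisons. Over all 26369 regions, 51.2% were called increased and never decreased, 48.1% decreased and never increased, and 0.736% in both directions.

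The accessibility of chromatin was measured by ATAC-seq, in which the Tn5 transposase inserts sequencing adapters into open DNA, in 24 libraries from 2 human diffuse large B-cell lymphoma (DLBCL) cell lines, OCI-LY3 and VAL. Both lines received AZD4573, a selective inhibitor of the transcription-elongation kinase CDK9, at 30 nM for 0, 3 or 8 h, with 4 libraries for each of 6 conditions. In each condition 2 libraries were made by the standard protocol from 50000 cells and 2 by Fast-ATAC from 5000 cells, as the sample labels give it; the protocol text gives 50000 cells for Fast-ATAC too. Each line was compared at 3 h and at 8 h with its own control, which the labels give as 0 h and the names of the lists as DMSO and which is read here as the 0 h libraries, so the comparisons of a line share those libraries. A comparison is named by its line and time (VAL 3 h is VAL cells at 3 h against 0 h), and each line is 1 genetic background. The question at these genes was whether accessibility changed at the promoters and their surroundings under CDK9 inhibition, and whether both lines changed alike. The deposited lists give, for every comparison and direction, only where the called regions lie, and hold no count, fold change, p-value or value per library. Consequently the size of a change, the depth and the spread between libraries are unknown here, no test between conditions was possible, and a region absent from a list was not called at the thresholds used, which does not show that it did not change. For the same reason the identity of the cells could not be checked against marker genes.

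PIM kinases are serine/threonine kinases that are active as soon as they are made, so that their activity is set chiefly by how much of the protein a cell holds. Their genes are switched on by cytokine receptors through JAK and STAT proteins and by NF-kB, and their substrates act in survival, the cell cycle and protein synthesis. PIM1 was found as a common integration site of a leukaemia virus in mouse lymphoma and is a frequent target of somatic hypermutation in DLBCL, PIM2 promotes survival and protein synthesis in B-cell malignancies, and PIM3 overlaps with the other two in function.

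The 3 genes lie on different chromosomes (hg19, GENCODE annotation). PIM1 (ENSG00000137193.14_7) spans chr6:37137928-37143204 on the forward strand, a length of 5277 bp in 6 exons. PIM2 (ENSG00000102096.10_9) spans chrX:48770459-48776301 on the reverse strand, a length of 5843 bp in 6 exons. PIM3 (ENSG00000198355.5_6) spans chr22:50354416-50357720 on the forward strand, a length of 3305 bp in 6 exons, and its TSS was taken at 50354420.

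The 250 bases upstream of each TSS are shown first because a called region covers this stretch at all 3 genes. Each is read 5′ to 3′ on the strand of the gene, ends at the base before the TSS, and has matches to the Sp/KLF consensus GGGCGG (either strand) in capitals:
PIM1, chr6:37137678-37137927, forward: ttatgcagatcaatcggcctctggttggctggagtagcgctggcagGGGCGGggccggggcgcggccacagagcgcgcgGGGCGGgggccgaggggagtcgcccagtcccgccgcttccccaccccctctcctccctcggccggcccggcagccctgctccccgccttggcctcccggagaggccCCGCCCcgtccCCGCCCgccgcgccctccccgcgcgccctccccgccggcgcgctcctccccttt
PIM2, chrX:48776302-48776551, reverse: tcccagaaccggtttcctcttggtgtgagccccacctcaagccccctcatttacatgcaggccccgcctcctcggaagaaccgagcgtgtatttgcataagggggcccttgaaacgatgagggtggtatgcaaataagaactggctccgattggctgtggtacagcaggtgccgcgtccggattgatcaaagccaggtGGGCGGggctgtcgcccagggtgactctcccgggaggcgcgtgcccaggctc
PIM3, chr22:50354170-50354419, forward: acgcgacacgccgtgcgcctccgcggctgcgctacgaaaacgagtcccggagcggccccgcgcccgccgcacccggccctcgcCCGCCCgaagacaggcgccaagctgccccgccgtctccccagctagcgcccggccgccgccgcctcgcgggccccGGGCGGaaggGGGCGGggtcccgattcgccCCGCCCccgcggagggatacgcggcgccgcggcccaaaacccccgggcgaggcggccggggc
All 250 bases of each window were also found in the RefSeq promoter of the same gene (GRCh38.p14).

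The PIM1 window held 4 matches to GGGCGG, the PIM2 window 1 and the PIM3 window 4, and 59.1% of 19894 protein-coding promoters of the same length held at least 1. GC content was 79.6% upstream of PIM1 and 82.0% upstream of PIM3, at percentiles 94.8 and 97.6 of those promoters, against 61.2% upstream of PIM2 at percentile 44.1. No match was found in any of the 3 windows to the consensus of CRE (TGACGTCA, held by 2.4% of promoters), AP-1 (TGANTCA, 4.69%), ETS (CCGGAA, 19.4%), E-box (CACGTG, 7.87%) or STAT (TTCNNNGAA, 5.69%). The same held for NF-kB (5.86% of promoters) and for CTCF (2.16%, with 1 mismatch allowed). A match is a run of letters and not a measured binding site.

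The promoter calls differed between the genes in cell line and in time. The PIM1 promoter was called increased in VAL cells at 8 h alone among the 4 comparisons. The PIM2 promoter was called increased in OCI-LY3 cells at 3 h and 8 h and in neither VAL comparison. The PIM3 promoter was called increased in VAL cells at 3 h and 8 h and in neither OCI-LY3 comparison. No PIM promoter was called decreased in any of the 4 comparisons, and none was called in both lines. Among the 6537 protein-coding genes with a promoter call in either line, 27.6% had one in both, so most called promoters were called in a single line. Whether the lines differ at these promoters was not tested, since the lists hold calls and no values.

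**Figure D1:**
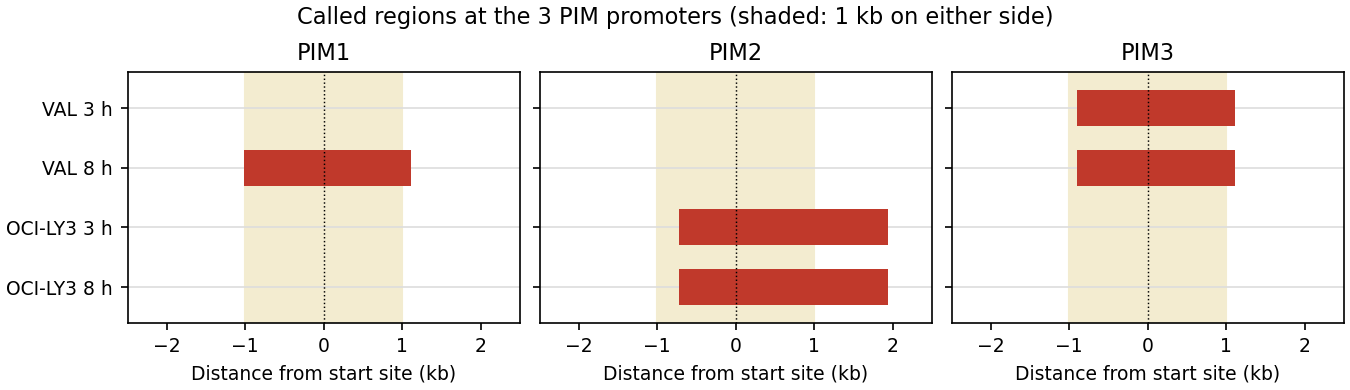
Called regions at the promoters of PIM1, PIM2 and PIM3. Each row is a comparison with 0 h, the horizontal axis is the distance from the TSS in kb (positive is downstream), red bars are increased regions drawn to scale, and the shaded band is the 1 kb promoter window. PIM1 has a bar in VAL 8 h, PIM2 in both OCI-LY3 rows and PIM3 in both VAL rows.

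These calls are read against the share of all 20176 protein-coding genes with a region called within 1 kb of a TSS. In VAL cells an increased promoter region was held by 10.3% of genes at 3 h and 25.1% at 8 h, and by 1 and 2 of the 3 PIM genes. In OCI-LY3 cells the shares were 5.91% at 3 h and 9.3% at 8 h, and 1 of the 3 PIM genes had one at each time. Decreased promoter regions were held by 0.322% of genes in VAL 3 h, 3.38% in VAL 8 h, 0.694% in OCI-LY3 3 h and 1.28% in OCI-LY3 8 h, and by 0 of the 3 PIM genes. With 3 genes, these counts cannot set the PIM family apart from other genes.

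The background also differed between chromosomes. Of the 450 protein-coding genes of chromosome 22, which carries PIM3, 34.2% had an increased promoter region in VAL 3 h and 63.6% at 8 h, against 2.22% and 6.44% in OCI-LY3 3 h and 8 h. An increased promoter region in VAL, as at PIM3, was thus held by a larger share of the genes of chromosome 22 than of all genes. Of the 869 genes of chromosome X, which carries PIM2, 5.52% and 2.53% had an increased promoter region in OCI-LY3 3 h and 8 h, and 1.27% and 2.65% in VAL. Of the 1048 genes of chromosome 6, which carries PIM1, 19.3% had one in VAL 8 h.

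**Figure D2:**
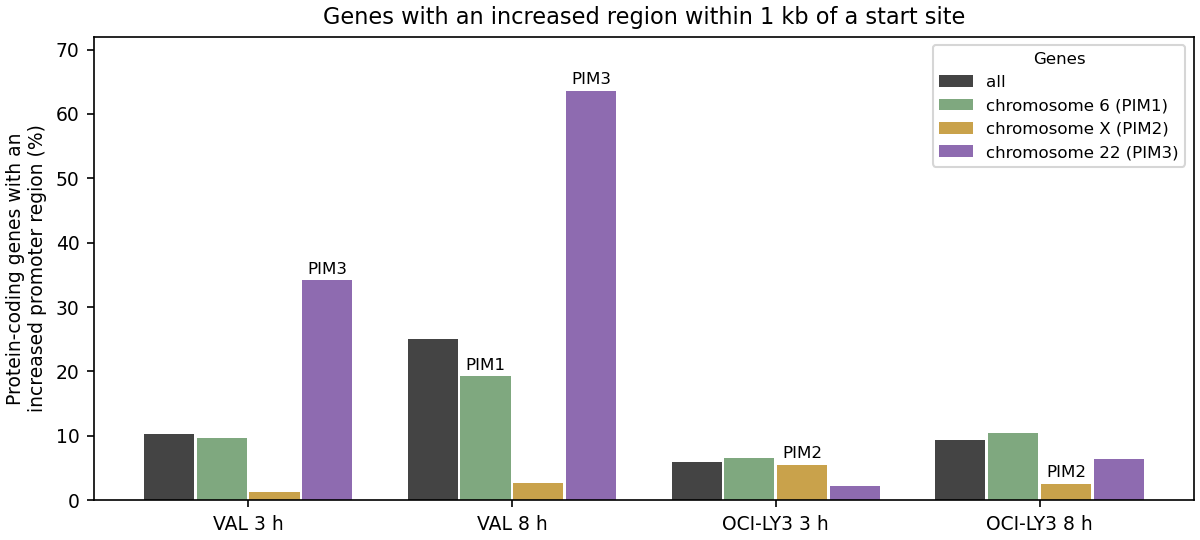
Share of protein-coding genes (vertical axis, percent) with an increased region within 1 kb of a TSS in each comparison, for all genes and for the chromosomes of PIM1, PIM2 and PIM3. A gene name above a bar marks a comparison in which the promoter of that PIM gene was itself increased; PIM3 stands on the bars of chromosome 22 at 34.2% and 63.6%, and PIM2 on bars of 5.52% and 2.53%.

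The promoter calls of PIM2 over the 4 comparisons were shared by the fewest genes. The pattern of PIM2, increased in OCI-LY3 at both times and not listed in VAL, was held by 142 protein-coding genes (0.704%), of which 6 were among the 869 genes of chromosome X. The pattern of PIM3 was held by 930 genes (4.61%), 128 of them among the 450 genes of chromosome 22 (28.4%). The pattern of PIM1 was held by 2464 genes (12.2%), 81 of them on chromosome 6 (7.73% of its genes). Each count includes the PIM gene.

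The nearest genes with an identical promoter pattern over all 4 comparisons were listed for each PIM gene, up to 5 on its chromosome, by the distance between start sites. For PIM1 these were RNF8 and MTCH1 (both at 184 kb), CMTR1 (263 kb), C6orf89 (284 kb) and CCDC167 (330 kb). RNF8 is a ubiquitin ligase of the DNA damage response, and CMTR1 methylates the messenger RNA cap. For PIM2 they were SMC1A and RIBC1 (both at 4.67 Mb), GNL3L (5.78 Mb), OGT (22.0 Mb) and RPL10 (105 Mb). SMC1A is a subunit of cohesin, OGT adds N-acetylglucosamine to proteins, and RPL10 is a ribosomal protein. For PIM3 they were CRELD2 (42.1 kb), ALG12 (42.3 kb), ZBED4 (107 kb), TRABD (270 kb) and HDAC10 (335 kb). For PIM2 the 5 named are all the other genes of its chromosome with its pattern, whereas for PIM1 and PIM3 they are the nearest of many, so the distances are not comparable between the genes.

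At the PIM1 locus, 4 regions were called and each comparison but OCI-LY3 3 h held at least 1 of them. The promoter region, chr6:37136920-37139036, was 2117 bp wide, ran from -1008 to +1108 bp of the TSS over exons 1 to 4 of 6, and was increased in VAL 8 h. Its width was at the 93.5th percentile of all listed regions, and its GC content of 69.8% at the 96.4th. The same calls, increased in VAL 8 h and not listed elsewhere, were held by 6585 of the 26369 regions (25.0%), so this is a common pattern.

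The other 3 PIM1 regions were intergenic. A region of 831 bp centred 20.1 kb upstream, chr6:37117407-37118237, was increased in VAL 8 h. A region of 1820 bp centred 14.4 kb upstream, chr6:37122635-37124454, was increased in OCI-LY3 8 h, a pattern of 1499 regions (5.68%). These upstream regions were thus called increased at 8 h in a single line each, and neither was called in both lines. A region of 739 bp centred 6.93 kb downstream of the TSS, chr6:37144493-37145231, beyond the end of the gene, was decreased in VAL 3 h and in OCI-LY3 8 h. It was not listed in VAL 8 h or in OCI-LY3 3 h.

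This downstream region was the single decreased region near a PIM gene, and 1 of 14 called in both lines, against 15.5% of all listed regions. Its pattern over the 4 comparisons was held by 49 of the 26369 regions (0.186%). Among the 1786 regions decreased in VAL 3 h, 615 (34.4%) were not listed at 8 h, 1171 (65.6%) were decreased at 8 h as well, and 399 (22.3%) were decreased in OCI-LY3 8 h. Whether accessibility there returned in VAL by 8 h was not tested, since being absent from a list gives no level.

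**Figure D3:**
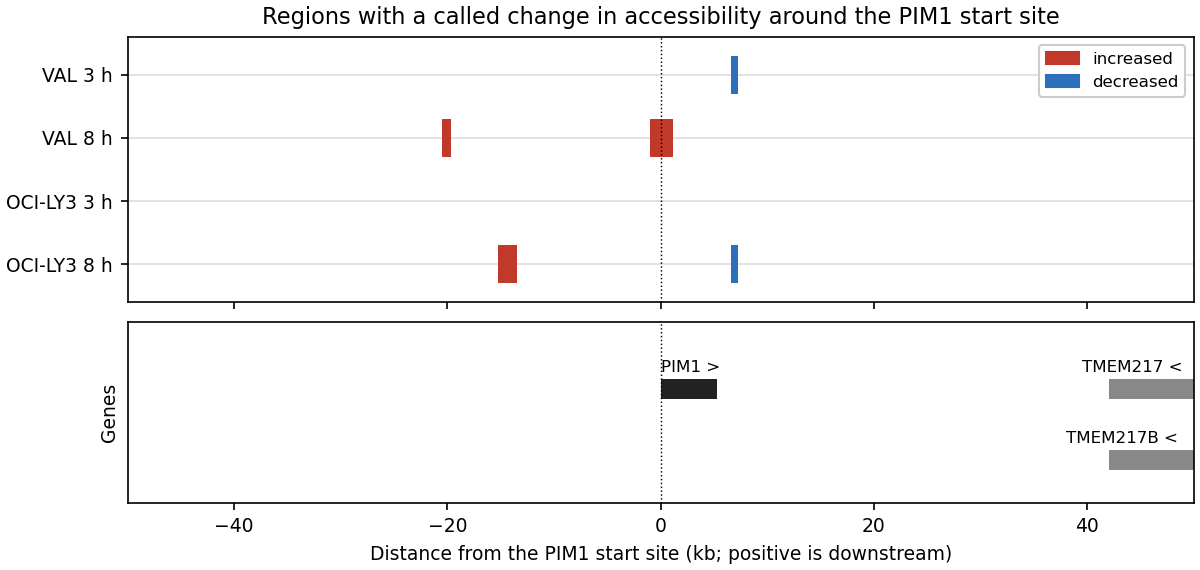
Map of the 50 kb on either side of the PIM1 TSS. The horizontal axis is the distance from the TSS in kb, rows are the 4 comparisons with 0 h, red and blue bars are increased and decreased regions to scale, and genes stand below with an arrow head for their direction. The decreased region centred 6.93 kb downstream appears in VAL 3 h and OCI-LY3 8 h, and the increased regions in VAL 8 h and OCI-LY3 8 h.

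The middle 200 bases of the 3 intergenic PIM1 regions are shown because they are the candidates outside the promoter, on the forward strand of hg19. Capitals mark matches to the NF-kB consensus, and the third window held no match to any consensus searched:
PIM1 20.1 kb upstream, chr6:37117722-37117921: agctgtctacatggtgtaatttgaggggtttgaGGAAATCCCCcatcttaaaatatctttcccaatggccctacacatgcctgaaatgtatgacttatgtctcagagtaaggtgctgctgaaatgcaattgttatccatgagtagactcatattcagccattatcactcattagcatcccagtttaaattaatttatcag
PIM1 14.4 kb upstream, chr6:37123444-37123643: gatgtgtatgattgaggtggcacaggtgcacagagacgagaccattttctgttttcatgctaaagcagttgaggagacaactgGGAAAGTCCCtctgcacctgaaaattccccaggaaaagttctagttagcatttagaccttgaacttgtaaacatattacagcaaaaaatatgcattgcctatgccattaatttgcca
PIM1 6.93 kb downstream, chr6:37144762-37144961: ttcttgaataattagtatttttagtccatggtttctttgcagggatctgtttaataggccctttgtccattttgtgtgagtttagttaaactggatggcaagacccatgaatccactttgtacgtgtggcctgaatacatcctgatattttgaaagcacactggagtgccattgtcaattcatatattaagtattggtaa
The increased windows upstream held 1 NF-kB match each, and 4.13% of the middle 200 bases of all 26369 regions held one. The decreased window held no CTCF match with 1 mismatch allowed, a match that 4.0% of all regions held. GC content over the whole regions was 41.6%, 45.3% and 45.1% in this order, below the median of 47.5% over all listed regions.

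PIM1 had no protein-coding neighbour whose TSS lay within 50 kb, and the small nucleolar RNA gene SNORD112, 13.5 kb away, had no called region. PIM1 was thus the nearest protein-coding start site to all 3 intergenic regions. Within 50 kb, increased regions were held by 26.2% of protein-coding genes in VAL 3 h, 46.6% in VAL 8 h, 19.1% in OCI-LY3 3 h and 29.9% in OCI-LY3 8 h. Decreased regions were held by 6.68%, 18.9%, 8.43% and 11.4% in the same order. PIM1 held 2 increased regions in VAL 8 h, and 30.4% of genes held 2 or more. In OCI-LY3 8 h it held 1 increased and 1 decreased region, and 407 genes (2.02%) held regions of both directions there.

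At the PIM2 locus, both regions were increased and both were listed in OCI-LY3 alone, as were 46.5% of the 4854 regions increased in OCI-LY3. The promoter region, chrX:48774356-48777026, was 2671 bp wide and ran from -725 to +1945 bp of the TSS over exons 1 to 3 of 6. It was increased at 3 h and at 8 h, a pattern of 452 regions (1.71%). Of all regions increased in OCI-LY3 3 h, 73.7% were increased in OCI-LY3 8 h as well. The width of the PIM2 promoter region was at the 98.8th percentile of all listed regions, the widest of the 14, and its GC content was 60.0%. The second region, chrX:48768273-48769919, was 1647 bp wide, was centred 7.21 kb downstream of the PIM2 TSS, and was increased at 8 h.

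The second region lay at the promoter and exon 1 of 5 of SLC35A2, which carries UDP-galactose into the Golgi, and is a promoter of that gene rather than a flanking region of PIM2. Of the 5 protein-coding neighbours with a TSS within 50 kb, SLC35A2 was the single one with a called promoter. PQBP1 (20.7 kb) and TIMM17B (20.9 kb) downstream, and OTUD5 (38.6 kb) and KCND1 (48.5 kb) upstream, had none in any of the 4 comparisons. PQBP1 acts in splicing, TIMM17B belongs to a mitochondrial import complex, OTUD5 is a deubiquitinase and KCND1 is a potassium channel.

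In VAL cells, 0 regions were called within 50 kb of PIM2. Increased regions were uncommon there over the whole of chromosome X, with one within 50 kb of 5.06% of its genes in VAL 3 h and 9.78% in VAL 8 h. For PIM2 the nearest increased ones lay 220 kb away at 3 h and 240 kb away at 8 h. Within 1 Mb of PIM2, VAL had 3 increased regions at 3 h and 3 at 8 h, against 3 and 4 in OCI-LY3. The wider neighbourhood thus held similar counts in both lines, and 2 of the 4 regions of OCI-LY3 8 h were the PIM2 and SLC35A2 promoters. Having 2 or more increased regions within 50 kb in OCI-LY3 8 h was seen for 13.9% of all protein-coding genes and for 28 of the 869 on chromosome X (3.22%).

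**Figure D4:**
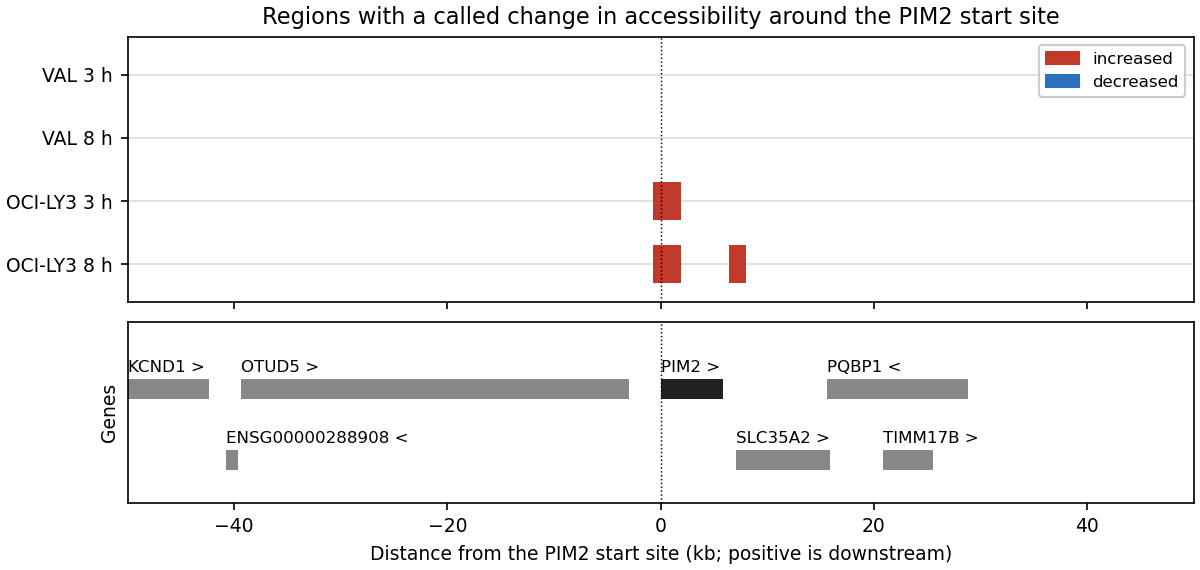
Map of the 50 kb on either side of the PIM2 TSS, drawn in the direction of PIM2. The horizontal axis is the distance from the TSS in kb, rows are the 4 comparisons with 0 h, red bars are increased regions to scale, and genes stand below with their direction. The 2 regions are in the OCI-LY3 rows, at the PIM2 promoter and at SLC35A2 7.07 kb away, and the VAL rows are empty.

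At the PIM3 locus, all 8 regions were increased, all 8 were listed in VAL 8 h, 6 of them were listed in VAL 3 h, and none was listed in OCI-LY3. Of all 11359 regions increased in VAL, 76.7% were likewise absent from the OCI-LY3 lists. Of all regions increased in VAL 3 h, 93.3% were increased in VAL 8 h as well. Of those increased in VAL 8 h, 29.7% were increased in VAL 3 h. The promoter region, chr22:50353524-50355531, was 2008 bp wide and ran from -896 to +1111 bp of the TSS over exons 1 to 4 of 6. Its GC content of 75.2% was at the 99.4th percentile of all listed regions, and its ratio of observed to expected CpG of 0.984 at the 99.7th. The calls of the 6 regions listed at both times in VAL were held by 1954 of the 26369 regions (7.41%).

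The 5 other regions listed at both times lay upstream. The farthest, chr22:50311327-50312887, was centred 42.3 kb upstream at the promoter shared by CRELD2 and ALG12, which are read in opposite directions. The next, chr22:50318461-50319830, 35.3 kb upstream, covered exon 9 of 10 of CRELD2. An intergenic region, chr22:50322761-50324174, lay 31.0 kb upstream. The last pair, chr22:50328313-50329010 and chr22:50329431-50330477, 25.8 and 24.5 kb upstream, lay at the promoter of the long non-coding RNA ENSG00000278869, whose TSS (25.5 kb upstream of that of PIM3) was inside the first of them. The 2 regions added in the list at 8 h were intergenic, chr22:50337311-50338715 at 16.4 kb upstream and chr22:50363932-50364679 at 9.88 kb downstream.

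**Figure D5:**
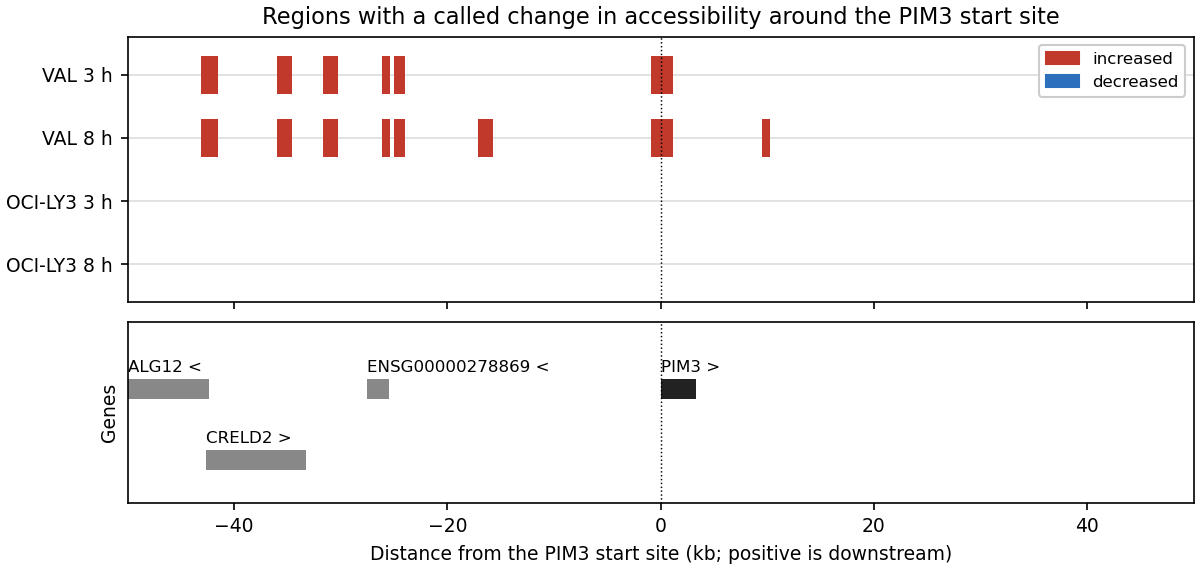
Map of the 50 kb on either side of the PIM3 TSS. The horizontal axis is the distance from the TSS in kb, rows are the 4 comparisons with 0 h, red bars are increased regions to scale, and genes stand below with their direction. VAL has 6 bars at 3 h and 8 at 8 h, 7 of the 8 of them outside the PIM3 promoter, and the OCI-LY3 rows are empty.

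Both protein-coding neighbours of PIM3, CRELD2 and ALG12, had a called promoter, and it was the same region for both, with the same calls as the PIM3 promoter. CRELD2 encodes a protein of the endoplasmic reticulum that is made under stress there, and ALG12 a mannosyltransferase that builds the sugar chain of N-glycosylation. Of the 8 regions, 1 lay at the PIM3 promoter, 3 at promoters of neighbours and 4 were flanking. The promoter is a small part of the 50 kb window, so this split is no trait of PIM3.

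Having 6 or more increased regions within 50 kb in VAL 3 h was seen for 207 protein-coding genes (1.03%) and for 20 of the 450 on chromosome 22 (4.44%). Having 8 or more at 8 h was seen for 606 genes (3.0%) and 50 of chromosome 22 (11.1%), with a highest count of 14 for any gene. On chromosome 22, the VAL 3 h lists held 248 increased against 2 decreased regions, and the VAL 8 h lists 701 against 3. In the OCI-LY3 lists of the same chromosome it was 17 against 20 at 3 h and 105 against 12 at 8 h. Within 1 Mb of PIM3, VAL had 38 increased regions at 3 h and 65 at 8 h, OCI-LY3 had 5 and 18, and 0 were decreased in either line. The nearest increased region to PIM3 in OCI-LY3 lay 133 kb away at 3 h and 194 kb away at 8 h.

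GC content differed between the directions over the whole lists and was high at PIM3. The median GC content of increased regions was 58.2% in VAL 3 h and 58.1% at 8 h, against 40.7% in decreased regions at both times. In OCI-LY3 it was 55.4% and 53.5% in increased regions at 3 h and 8 h, against 45.3% and 42.8% in decreased ones. On chromosome 22 the increased regions had medians of 60.9% in VAL 3 h and 60.0% in VAL 8 h. In OCI-LY3 8 h the order was the other way on that chromosome, 56.4% in 105 increased and 63.2% in 12 decreased regions. The 8 PIM3 regions had GC contents from 56.6% to 75.2% (median 69.4%), the 2 PIM2 regions 56.0% and 60.0%, and the 4 PIM1 regions 41.6% to 69.8%. All 8 PIM3 regions, both PIM2 regions and the PIM1 promoter lay above the median of all listed regions, 11 of the 14. The part of GC content and of the chromosome in these calls was not tested.

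The middle of the intergenic PIM3 region 31.0 kb upstream is shown because it was called at both times in VAL and lies at no annotated gene, with Sp/KLF and NF-kB matches in capitals:
PIM3 31.0 kb upstream, chr22:50323367-50323566: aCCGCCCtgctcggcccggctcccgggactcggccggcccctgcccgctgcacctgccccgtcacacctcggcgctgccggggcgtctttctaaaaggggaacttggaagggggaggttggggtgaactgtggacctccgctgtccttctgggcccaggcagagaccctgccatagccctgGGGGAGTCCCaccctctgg
The Sp/KLF consensus was held by 19.2% of the middle 200 bases of all 26369 regions. In the middle windows of the 8 PIM3 regions, Sp/KLF matches were found in 4, NF-kB matches in 3 (31.0, 24.5 and 16.4 kb upstream) and STAT matches in 2 (35.3 and 24.5 kb upstream), with 5.11% of all regions holding a STAT match. The middle of the PIM3 promoter region held 1 ETS match, a consensus held by 6.01% of regions, and the middle of the region 9.88 kb downstream held 1 E-box, held by 3.63%.

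The regions just inside and outside the 50 kb limit were far apart. The farthest region inside began 41.5 kb from the PIM3 TSS, and the nearest outside lay 106 kb from PIM3 and 108 kb from PIM1. Between 50 and 100 kb, 0 regions were listed for any of the 3 genes. The nearest region beyond a promoter lay 6.57 kb from the TSS for PIM1, 6.38 kb for PIM2 and 9.51 kb for PIM3. The 14 regions were 698 to 2671 bp wide with a median of 1410 bp, against 345 to 3026 bp and 1310 bp over all regions.

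A list of 34 genes around the PIM kinases was read for promoter calls, made of 12 regulators of PIM expression and 22 substrates or effectors. Increased promoter regions were held by 8 of 34 in VAL 3 h (23.5%, background 10.3%), 19 in VAL 8 h (55.9%, background 25.1%), 1 in OCI-LY3 3 h (2.94%, background 5.91%) and 7 in OCI-LY3 8 h (20.6%, background 9.3%). Decreased ones were held by 0, 2 (5.88%), 1 (2.94%) and 0 genes in the same order, against backgrounds of 0.322%, 3.38%, 0.694% and 1.28%. These shares describe the chosen list and were not tested against other genes. Over the 4 comparisons, 22 of 34 genes (64.7%) had a call in at least 1, against 32.4% of all protein-coding genes.

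Among the 12 regulators, 8 had a call (66.7%, background 32.4%). TYK2, a kinase of the JAK family, and RELA, the p65 subunit of NF-kB, were increased in VAL 3 h and 8 h and in OCI-LY3 8 h. The signal transducers STAT5B and STAT6 were increased in VAL at both times, and STAT3 and STAT5A in VAL 8 h. STAT5A and STAT5B share 1 region, chr17:40439374-40441596, which was increased in VAL 8 h. KLF5, a zinc finger factor, was decreased in VAL 8 h, and HOXA9, a homeobox factor, in OCI-LY3 3 h. JAK1, JAK2, NFKB1 and REL had no called promoter in any comparison.

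Among the 22 substrates and effectors, 14 had a call (63.6%, background 32.4%). CDC25A, a phosphatase that drives entry into S phase, was increased in all 4 comparisons and was the single substrate called in OCI-LY3 3 h. CDKN1A, the cell cycle inhibitor p21, was increased in VAL at both times and in OCI-LY3 8 h. The cell death promoter BAD, the mTORC1 inhibitor AKT1S1 and the cytokine signalling inhibitor SOCS1 were increased in both lines at 8 h. TSC2, an inhibitor of mTORC1 signalling, and the receptor NOTCH1 were increased in VAL at both times. The translation factor EIF4B, CDC25C, RUNX1, RUNX3, NUMA1 and MDM2 were increased in VAL 8 h. MYC was decreased in VAL 8 h and was the single substrate called decreased. CDKN1B, FOXO1, FOXO3, MYB, CXCR4, MAP3K5, SKP2 and ABCG2 had no called promoter in any comparison.

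Set beside these genes, the PIM3 promoter had the calls of STAT5B, STAT6, TSC2 and NOTCH1, and the PIM1 promoter had those of STAT3, STAT5A, EIF4B, CDC25C, RUNX1, RUNX3, NUMA1 and MDM2. No gene of the list had the calls of the PIM2 promoter. Over all protein-coding genes, the pattern of PIM3 was held by 4.61%, that of PIM1 by 12.2% and that of PIM2 by 0.704%. With a share that low, finding none on a short list does not set PIM2 apart.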

How the data were processed

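The files analysed were 8 lists of regions from 24 ATAC-seq libraries. Per the labels and the study's methods, the authors mapped the reads with bowtie2 (genome build hg19), discarded mitochondrial, non-unique and duplicate reads, called peaks per sample with MACS2, merged them and counted reads with bedtools, and compared times with DESeq2. Tool versions, the treatment of the Tn5 offset and the handling of the 2 library protocols are not given in the sources used here. The adjusted p threshold is given differently in the legend and the supplementary methods. The authors deposited region coordinates in bp, with 0 columns of per-sample values, so depth is unknown and no test between conditions was computed.

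Region starts were read as 0-based and converted to 1-based coordinates. Regions were matched between comparisons by equal coordinates, since 0 regions overlapped another without them. Start sites were those of transcripts tagged basic in GENCODE 44 lifted to GRCh37. Backgrounds cover 20176 protein-coding genes. Chromosome names and lengths of GRCh37 were checked against the coordinates, and 0 regions ran past a chromosome's end. Motifs were searched as fixed consensus letters in the middle 200 bases of regions and in 250 bases upstream of canonical start sites. Scripts (Python 3.11.15, numpy 2.4.6, pandas 2.3.3) were tested on simulated data. Named genes were the PIM genes, every protein-coding gene with a start site within 50 kb, members of the list with a promoter call and up to 5 nearest genes with the same promoter calls. List members without a call and 2 non-coding neighbours are named besides and were added after their calls were seen. The members and lists were chosen with earlier results of these data known. Alternatives changed the window, the promoter width, the start sites, the overlap rule and the merging of regions.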

Additional observations from a re-analysis of the deposited data

How the results depend on the processing

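Counts at the 3 PIM promoters were recomputed with 500 and 2500 bp, the midpoint rule and other start sites. Of these 120 counts, 95 belong to a count of 0 and the other 25 stayed within 1.5 times. The widths and the midpoint rule could change neither kind. Each promoter region spans its TSS with its midpoint within 1 kb of it, and the nearest region beyond a promoter lay 6.38 kb from a TSS. Of 144 recomputed counts within 50 kb, 96 belong to a count of 0, and 46 of the other 48 stayed within 1.5 times. A count of 0 rose in 0 of them, and the 100 kb window could raise none, as 0 regions were listed between 50 and 100 kb. With a window of 25 kb, the increased regions of PIM3 numbered 2 in VAL at 3 h in place of 6, and 4 in VAL at 8 h in place of 8, as the regions farther upstream fall outside it. Over the list of PIM regulators and substrates, the 12 recomputed counts above 0 stayed within 1.5 times. The share of genes with a promoter region, over the 8 lists, ranged from 0.263% to 24.7% at 500 bp, 0.486% to 26.4% at 2500 bp, 0.382% to 19.3% on chromosome 6, 0.115% to 5.52% on chromosome X and 0.222% to 63.6% on chromosome 22. The share with a region in the window ranged from 3.83% to 39.5% at 25 kb and from 11.2% to 55.8% at 100 kb. These shares were held to the 95% Wilson interval of the share as reported, which covers counting error over genes only and is narrower than 1.5 times. Of the recomputed shares, 29 of 40 at promoters and 16 of 16 in the window fell outside it. At 500 bp every promoter share stayed inside it, and at 2500 bp every one fell outside. The 40 include the shares on single chromosomes, which are other sets of genes and not settings of the processing. For decreased regions in VAL at 3 h the window share was 6.68% at 50 kb, 3.83% at 25 kb and 11.2% at 100 kb. No paired analysis was possible because no value per library stands in the lists, so leaving out a library and examining the 2 protocols apart could not be done either. Thresholds stricter than those of the lists could not be tried, and unlisted regions cannot be told from regions that did not change.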
